A study of Mus musculus with 20 samples.

Results

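The nuclear genes of the respiratory chain were followed in the striatum of 20 mice from a line selected for home-cage activity and its unselected Control line. They were taken by symbol, as every gene of the count tables whose name starts with Nduf, Uqcr, Atp5 or Cox4 to Cox8, together with Sdha, Sdhb, Sdhc, Sdhd and Cycs. Names ending in -ps, which left out 7 genes, were not included. This gave 98 members among 39179 genes, 94 annotated as protein coding and 4 as processed pseudogenes (Ndufb4c, Ndufa11b, Ndufs6b and Cox6c2). Tests were made on the 91 members whose CPM, the read count scaled to library size, was above 1 in 3 or more of the 20 mice, among 14792 such genes. By role, 39 of 41 complex I genes, 8 of 8 complex I assembly factors (Ndufaf genes), 4 of 4 complex II genes, 8 of 8 complex III genes, Cycs, 14 of 19 complex IV genes and 17 of 17 ATP synthase genes passed. Cox7a1, Cox7b2, Cox8b, Cox8c, Cox6c2, Ndufa11b and Ndufs6b did not.

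Complexes I and II take electrons from NADH and succinate, complex III passes them to the soluble carrier cytochrome c, and complex IV hands them to oxygen. The proton gradient built along the way drives the ATP synthase. Most subunits are encoded in the nucleus, a small core is encoded in the mitochondrial genome, and neurons depend heavily on this supply of ATP.

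All mice were males of generation 17, about 6.5 months old, and both lines descend from the same intercross of 8 inbred strains. Each line gave 5 mice injected with saline and 5 injected with 0.25 mg/kg amphetamine, 4 groups in all, and tissue was taken 2 hours later. Each line is a single breeding population, with 8 pairs of parents behind the Control mice and 5 behind the High-Active mice, so selection, drift and family cannot be told apart in a difference between the lines. The whole bilateral striatum was sequenced, with 32388971 to 53710713 reads on genes per mouse, and the members took 0.862 to 1.01% of them.

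The respiratory chain genes were among the more abundant transcripts of the striatum. On the scale of mean CPM per kilobase of exon over the 20 mice, the median of the 91 members was 42.3, against 5.14 for 14657 tested genes with a known length, and 93.4% of those genes lay below the members' median. The median level by role was 36.4 for complex I (protein-coding genes), 10.2 for its assembly factors, 51.8 for complex II, 77.5 for complex III, 84.4 for complex IV and 52.8 for the ATP synthase. Thus the assembly factors, which build complex I but do not stay in it, stood lowest.

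Among the tested protein-coding genes of complex I the level per kilobase ran from 118 for Ndufa4, a small subunit now assigned to complex IV, to 1.02 for its paralog Ndufa4l2. In complex III it ran from 101 for the hinge protein gene Uqcrh to 40.0 for Uqcrq. In the ATP synthase it ran from 260 for Atp5a1, the alpha subunit of the catalytic head, to 9.01 for Atp5s. Complex II ran from 85.7 for the flavoprotein gene Sdha to 23.9 for the membrane anchor gene Sdhc, and Cycs, which encodes cytochrome c, was at 34.1. The assembly factors ran from 16.2 for Ndufaf5 to 3.31 for Ndufaf2.

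Complex IV had the widest range among the tested protein-coding genes, from 367 for Cox8a to 1.099 for Cox4i2. It holds isoform genes used mainly in other tissues, some of them below the filter. Cox8a was at 367 CPM per kilobase, while its muscle partner Cox8b was at 0.467 and its testis partner Cox8c had 1 read in all 20 mice. The ubiquitous Cox4i1 was at 193 and the lung form Cox4i2 at 1.099, Cox6a1 was at 228 and the muscle form Cox6a2 at 3.20, and Cox6b1 was at 185 and the testis form Cox6b2 at 1.247. Cox7a2 was at 81.8 and the muscle form Cox7a1 at 1.16, and Cox7b was at 87.1 and Cox7b2 at 0.535. For every one of these pairs the striatum held the broadly expressed form at far higher level than the tissue form. Of the 3 genes for the ring-forming subunit c of the ATP synthase, which encode the same mature protein, Atp5g3 was at 73.3, Atp5g2 at 17.6 and Atp5g1 at 15.8. Before scaling to length they were at 160, 29.5 and 77.5 CPM. The order of Atp5g2 and Atp5g1 thus turns on their annotated exons, 1675 and 4912 bases. The pseudogenes Gm10175 and Gm10231 match Atp5g2 in 100% of their stretches of 100 bases, and reads aligned to several places were not counted.

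**Figure D1:**
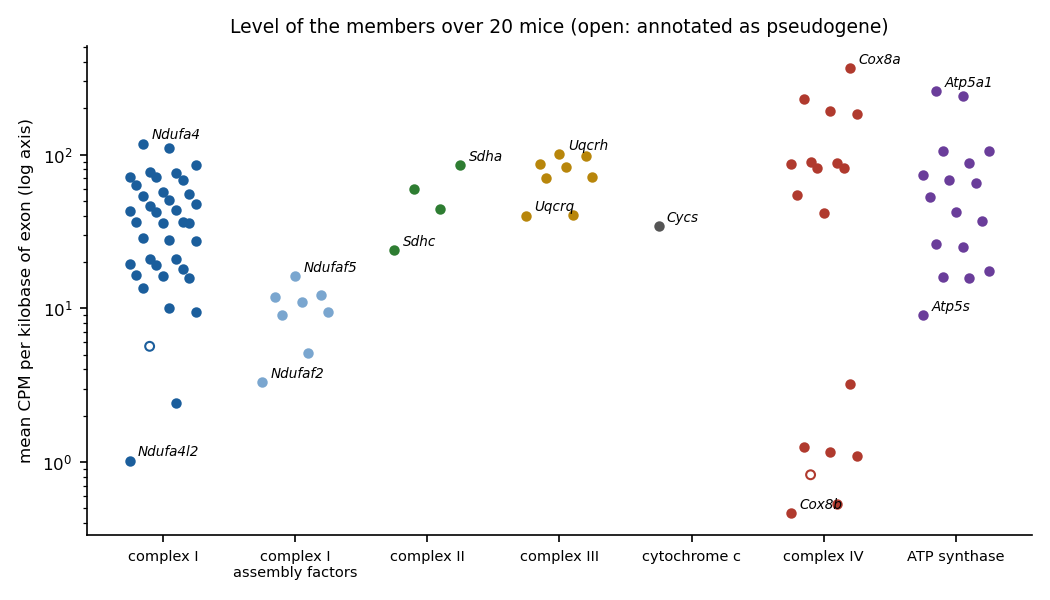
Mean CPM per kilobase of exon over 20 mice (log axis) for the 95 members at or above 0.1, by role, with 1 point per gene and open points for genes annotated as pseudogenes; the highest and lowest of each role are named. The widest range is that of complex IV, from 367 for Cox8a to 0.467 for Cox8b, and the assembly factors sit lowest as a group.

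The first question was whether the lines differed in these genes (genotype effect, High-Active minus Control averaged over both treatments). Only Ndufc1 passed the threshold of FDR 0.1 in edgeR's quasi-likelihood test, so 1 of 91 members was higher in High-Active mice and 0 were lower. Over all 14792 genes, 7.63% were called higher and 6.9% lower. At an unadjusted p under 0.05, 10 of the members and 3862 of all genes passed. The median log2 fold change of the members was 0.00957, with 54 of 91 positive, beside -0.000931 over all genes. Because whole tissue was measured, fewer cells of a type and less RNA per cell cannot be told apart in these values.

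The intervals of most members were narrow. The median standard error of the line difference was 0.0387 for the members and 0.0683 over all genes. Genes of like abundance were not compared, so the shares below partly reflect this precision. The 95% interval of the line difference lay inside a 1.2-fold change in either direction for 81 of 91 members (89.0%), and for 55.0% of all tested genes. It lay inside 1.1-fold for 57 members (62.6%) and 21.5% of all genes. For no member did the values of the 2 lines fail to overlap, which happened for 39 of the 14792 genes (0.264%). By treatment, 0 members were called between the lines in saline mice, where 3.74% of all genes were called. In amphetamine mice 0 were called, where 1.3% of all genes were called. At an unadjusted p under 0.05 there were 7 members and 2573 of all 14792 genes in saline mice. In amphetamine mice there were 5 members and 1870 of all genes.

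**Figure D2:**
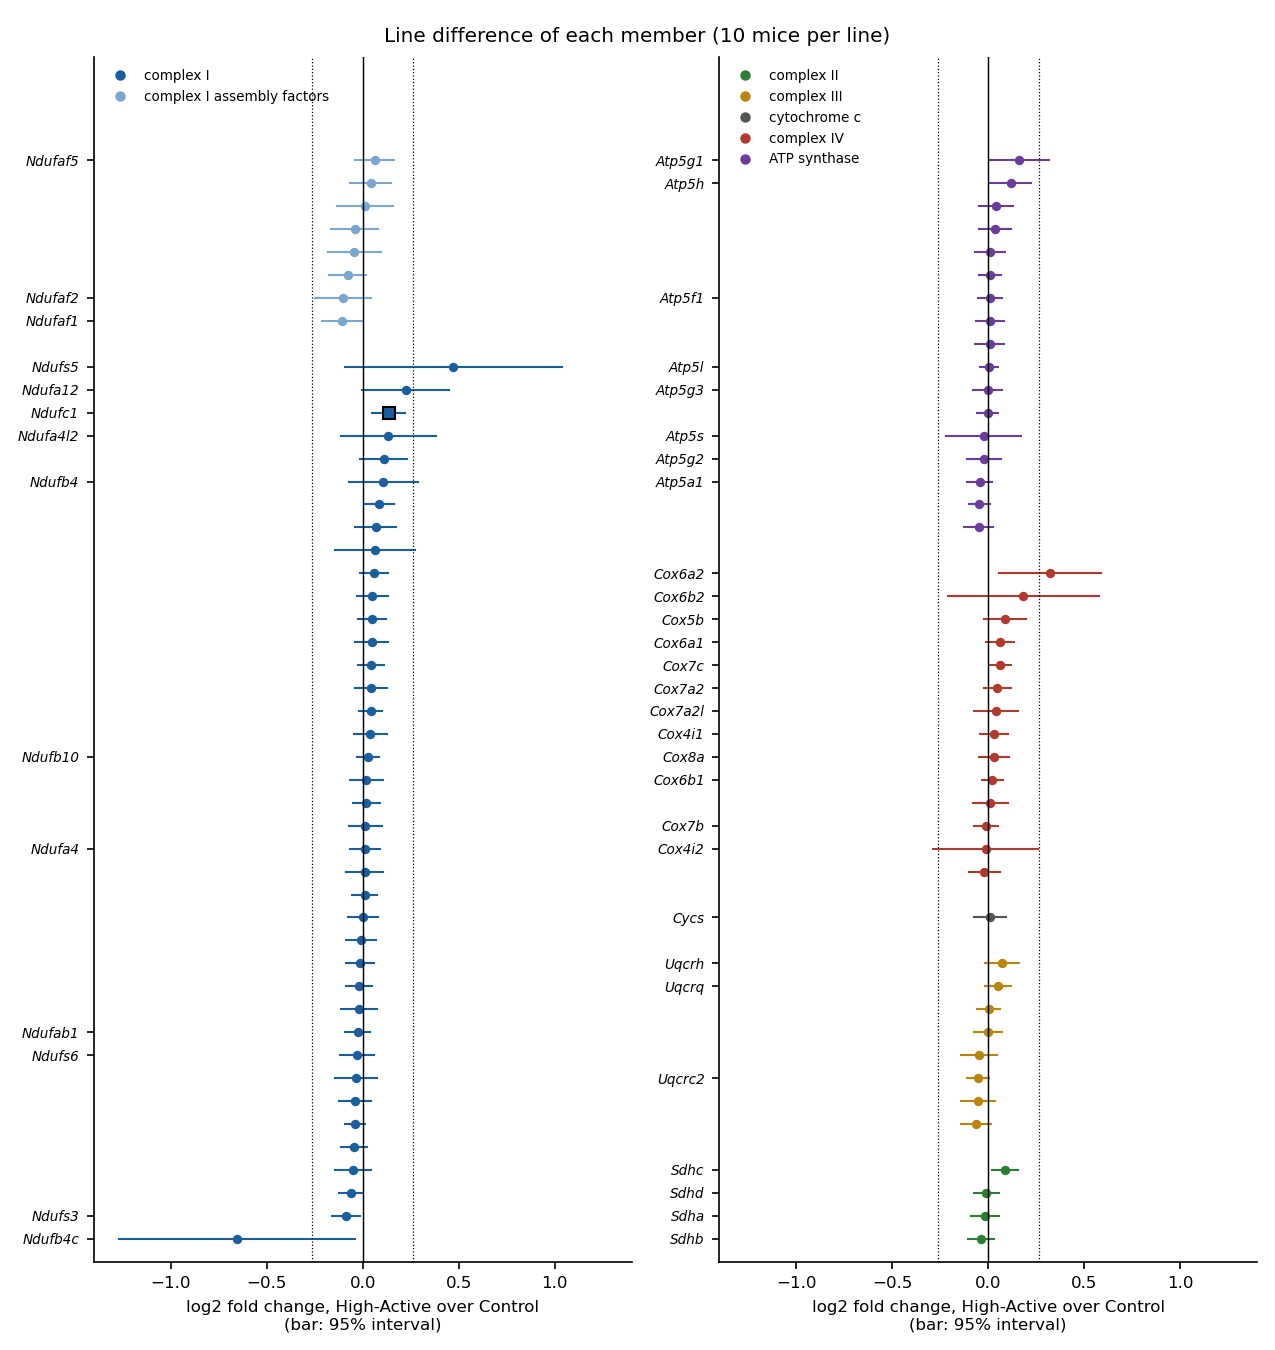
Line difference of each of the 91 tested members on the log2 scale (horizontal axis, positive is higher in High-Active mice) by role, with points for the estimate, bars for its 95% interval, n = 10 mice per line, and dotted lines at 1.2-fold in either direction; genes described in the text are named on the axis. The outlined square marks Ndufc1, the only member called, and the widest bars belong to Ndufb4c and Ndufs5.

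Ndufc1 (chromosome 3, 51404677 to 51408988 on the minus strand of GRCm38) encodes a small accessory subunit of complex I. Its levels were 28.7, 28.8, 29.1, 31.1 and 32.2 CPM in Control saline mice and 28.9, 29.1, 29.4, 29.9 and 31.1 CPM in Control amphetamine mice. They were 29.0, 29.8, 33.7, 33.7 and 34.7 CPM in High-Active saline mice and 30.3, 32.6, 34.0, 34.1 and 35.9 CPM in High-Active amphetamine mice. The lines overlapped, and 7 of 10 High-Active mice lay above every Control mouse. The log2 fold change was 0.13 (SE 0.041, 95% interval 0.0493 to 0.220, edgeR FDR 0.0498). The call was lost when counts were first summed over mice of the same parents (log2 fold change 0.119, FDR 0.175) with a cortical marker score as a covariate (0.156, FDR 0.117), and in edgeR's likelihood-ratio test with robust dispersions (FDR 0.123).

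No other complex I gene passed. Ndufs3, a core subunit of the arm that carries electrons from NADH, was at 75.05 to 89.9 CPM with a median of 81.3 in Control mice and at 72.1 to 81.8 with a median of 76.9 in High-Active mice (log2 fold change -0.09, SE 0.034, edgeR FDR 0.11). Of the 39 complex I genes, 25 had a positive log2 fold change, with a median of 0.0178. Among the 8 assembly factors, Ndufaf1 had the smallest p, with a median of 18.9 CPM (16.8 to 21.1) in Control mice and 17.9 CPM (15.4 to 19.4) in High-Active mice (log2 fold change -0.11, SE 0.049, edgeR FDR 0.165). Of these factors 3 of 8 had a positive value, with a median of -0.0434.

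The 4 subunits of succinate dehydrogenase, which is complex II and also an enzyme of the citric acid cycle, did not pass either. Sdhc was the nearest to the threshold among all members after Ndufc1. It was at 74.1, 75.65, 76.2, 76.8 and 77.6 CPM in Control saline mice, at 70.0, 73.2, 74.6, 75.1 and 79.1 CPM in Control amphetamine mice, at 74.2, 74.5, 81.5, 82.2 and 88.0 CPM in High-Active saline mice and at 75.2, 78.3, 78.8, 82.0 and 84.7 CPM in High-Active amphetamine mice. The lines overlapped, with 5 of 10 High-Active mice above every Control mouse (log2 fold change 0.09, SE 0.033, edgeR FDR 0.103). The partner subunits gave values of the opposite sign, none called. These were -0.016 for Sdha (SE 0.036), -0.0371 for the iron-sulfur subunit gene Sdhb (SE 0.031) and -0.0102 for the second membrane anchor gene Sdhd (SE 0.031).

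In complex III the smallest p belonged to Uqcrc2, a core protein gene of the matrix side, at 177 to 190 CPM in Control mice and 159 to 190 CPM in High-Active mice (log2 fold change -0.05, SE 0.028, edgeR FDR 0.237). Of the 8 complex III genes, 3 had a positive value, with a median of -0.0245. Cycs was at 106 to 126 CPM with a median of 115.3 in Control mice and at 102 to 127 CPM with a median of 115.4 in High-Active mice. Its log2 fold change was 0.01 (SE 0.040), with a 95% interval from -0.0723 to 0.0949.

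Complex IV had the largest share of positive values, 11 of 14 genes with a median of 0.0353, and no call. The smallest p was that of Cox6a2, the heart and skeletal muscle form of subunit 6a. It was low in every mouse, at 1.69, 1.69, 1.77, 2.25 and 2.58 CPM in Control saline mice, at 1.41, 1.71, 1.72, 2.01 and 2.49 CPM in Control amphetamine mice, at 1.88, 1.99, 2.09, 2.32 and 3.16 CPM in High-Active saline mice and at 2.15, 2.38, 2.44, 2.75 and 3.05 CPM in High-Active amphetamine mice. All 10 High-Active mice lay above the Control median, and the lines overlapped (log2 fold change 0.32, SE 0.127, edgeR FDR 0.119). Of 7 muscle markers Ckm, Mb and Tnnt3 stayed below the filter and Acta1, Myh6, Myh7 and Tnnc1 passed it, with Acta1 lower in High-Active mice (log2 fold change -0.30, SE 0.112, edgeR FDR 0.0959). Their summed level was 14.8 to 20.0 CPM in Control and 11.1 to 21.9 CPM in High-Active mice, and their part in the Cox6a2 values was not tested. Its broadly expressed partner Cox6a1 was at 146 to 169 CPM in Control and 150.4 to 179 CPM in High-Active mice (log2 fold change 0.06, SE 0.035, edgeR FDR 0.278).

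For the other isoform pairs of complex IV the intervals of the line difference included 0. The log2 fold change was -0.01 for Cox4i2 (SE 0.130) and 0.03 for Cox4i1 (SE 0.035). It was 0.18 for Cox6b2 (SE 0.187) and 0.02 for Cox6b1 (SE 0.027). It was 0.05 for Cox7a2 (SE 0.033), -0.01 for Cox7b (SE 0.029) and 0.03 for Cox8a (SE 0.036). The errors of the tissue forms, at about 1 CPM, were several times those of their abundant partners. The same held for Ndufa4l2 (0.13, SE 0.118) beside Ndufa4 (0.01, SE 0.038). Of the members below the filter, Cox7a1 had 516 reads over the 20 mice, Cox7b2 245, Cox6c2 166, Cox8b 141, Ndufs6b 15 and Ndufa11b 3.

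In the ATP synthase 10 of 17 genes had a positive value, with a median of 0.00808 and no call. The 2 genes with a p under 0.05 were Atp5h, which encodes subunit d of the stalk that holds the head in place (0.12, SE 0.051, edgeR FDR 0.158), and Atp5g1 (0.16, SE 0.073, edgeR FDR 0.166). The other 2 subunit c genes gave -0.02 for Atp5g2 (SE 0.042) and 0.00 for Atp5g3 (SE 0.036). Both Atp5h and Atp5g1 have a nearly identical pseudogene with reads of its own row, described further on.

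Summed over all 98 members, the level was 8959 to 9460 CPM in Control mice with a median of 9151, and 8808 to 9756 CPM in High-Active mice with a median of 9097. The sums of the lines overlapped for every complex. As mean ± SD over the 10 mice of a line, complex I genes summed to 2429 ± 59.9 CPM in Control and 2451 ± 91.2 CPM in High-Active animals. Complex IV genes summed to 1612 ± 48.0 and 1650 ± 61.9 CPM, and ATP synthase genes to 3406 ± 55.3 and 3373 ± 130 CPM, in the same order. The SD over High-Active mice was above that over Control mice for complexes I to IV and the ATP synthase, and below it for the assembly factors (6.00 against 8.16 CPM); these spreads were not tested.

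**Figure D3:**
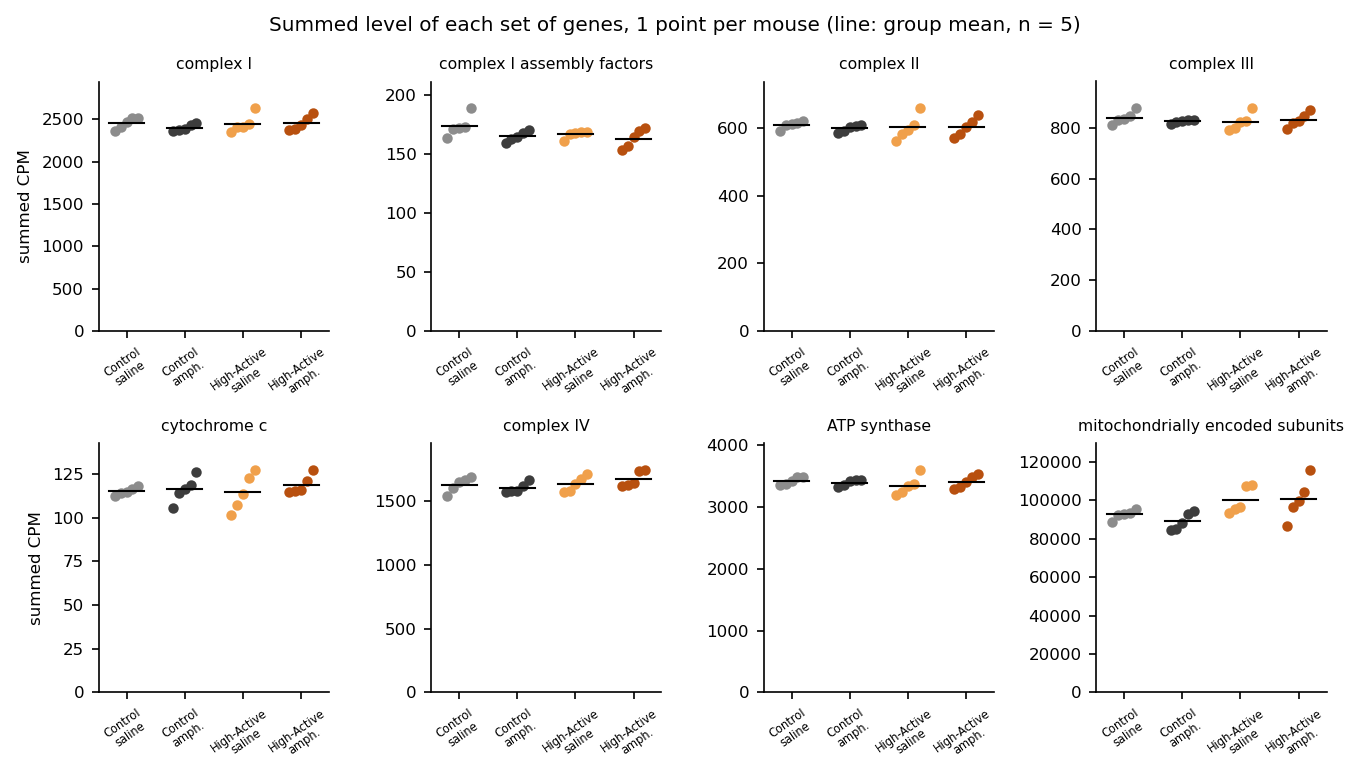
Summed CPM (vertical axes from 0) of the genes of each role and, in the last panel, of the mitochondrially encoded subunits, with 1 point per mouse, 5 mice per group and lines at the group means. The points of the 4 groups overlap in each panel, and the mitochondrially encoded subunits reached 115936 CPM in a High-Active amphetamine mouse.

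The subunits encoded in the mitochondrial genome work in the same complexes. Their summed level was 90860 ± 3958 CPM in Control and 100491 ± 8530 CPM in High-Active animals (mean ± SD, 10 mice each), and of the 12 that passed the filter 5 were higher in High-Active mice and 0 lower (mt-Nd5, mt-Nd6, mt-Cytb, mt-Co1 and mt-Co3). Over all genes 7.63% were called higher and 6.9% lower, and the difference between these genes and the nuclear members was not tested.

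Other genes of the pathway were counted by list, against 7.63% called higher and 6.9% called lower over all genes. Of the 7 complex I assembly factors outside the Nduf prefix, 1 was lower in High-Active mice, Ecsit (log2 fold change -0.19, SE 0.042, edgeR FDR 0.0106), and 0 were higher. Of 6 complex III assembly factors, 2 were lower, Uqcc2 (-0.13, SE 0.047, edgeR FDR 0.0877) and Uqcc3 (-0.24, SE 0.064, edgeR FDR 0.0292), and 0 higher. Both help to build the complex around cytochrome b.

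Of 19 tested complex IV assembly factors, Cox15, a heme A synthase, was lower (-0.29, SE 0.053, edgeR FDR 0.00344) and Coa5 was higher (0.12, SE 0.035, edgeR FDR 0.05). Of 5 genes for assembly and inhibition of the ATP synthase, Tmem70, an assembly factor, was lower (-0.19, SE 0.039, edgeR FDR 0.00725). Of 17 genes of the citric acid cycle and pyruvate dehydrogenase, 2 were higher and 1 lower. These were Suclg2, a subunit of the GTP-forming succinyl-CoA ligase (0.46, SE 0.062, edgeR FDR 0.000279), the fumarase gene Fh1 (0.15, SE 0.046, edgeR FDR 0.052) and Dld, the shared dehydrogenase subunit (-0.07, SE 0.024, edgeR FDR 0.0923). No call fell among 4 complex II assembly factors (0 at an unadjusted p under 0.05), 12 regulators of mitochondrial biogenesis (2) or 14 carriers and uncoupling proteins (2) in the same edgeR test.

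Other groups of short transcripts are given for scale, beside the same 7.63% higher and 6.9% lower over all genes. Of 78 cytosolic ribosomal protein genes, 10 were higher in High-Active mice and 0 lower, with a median log2 fold change of 0.0531. Of 76 mitochondrial ribosomal protein genes, 1 was higher and 5 were lower, with a median of -0.0175. The median over 727 other protein-coding genes with under 1500 exonic bases was 0.0282.

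Several members varied widely between single mice of the same group. The SD of log2 CPM within groups had a median of 0.0839 over the 91 members, and it was 0.659 for Ndufs5 and 0.261 for Ndufa12, the highest and second highest of 86 protein-coding members with at least 5 CPM. Both have a processed pseudogene elsewhere in the genome that is nearly identical over its whole length. A search of the annotated transcripts found 32 pseudogenes that share at least 100 stretches of 31 bases with 1 of 20 members, and 10 of these pseudogenes passed the expression filter. Of the stretches of 100 bases in the pseudogenes of Ndufs5 and Ndufa12, 52.3% and 59.1% are identical to the member. Reads aligned to several places were set aside by the counter, and the sums of a member and its pseudogene below do not hold them. Whether the counted reads were placed at the copy they came from was not tested.

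The coding sequence of Ndufs5, an accessory subunit of complex I, and its pseudogene BC002163 (chromosome 16, 42955631 to 42955949, plus strand of GRCm38) are shown over the same 120 bases to let the number of telling positions be seen, with the differing bases in capitals.

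Ndufs5: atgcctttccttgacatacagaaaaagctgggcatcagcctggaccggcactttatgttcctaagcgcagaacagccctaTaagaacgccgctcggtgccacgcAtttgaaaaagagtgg

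BC002163: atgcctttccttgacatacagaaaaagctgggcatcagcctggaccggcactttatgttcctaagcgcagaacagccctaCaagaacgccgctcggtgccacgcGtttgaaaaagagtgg

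The aligned 319 bases of this pair differ at 2 positions, both in the stretch above. Ndufs5 was at 12.5, 13.3, 16.3, 16.7 and 35.7 CPM in Control saline mice, at 12.5, 15.7, 19.3, 32.4 and 33.2 CPM in Control amphetamine mice, at 14.3, 21.03, 32.8, 33.8 and 35.2 CPM in High-Active saline mice and at 12.3, 18.2, 34.0, 34.8 and 50.9 CPM in High-Active amphetamine mice. Each group held mice between 12.3 and 21.03 CPM and mice between 32.4 and 50.9 CPM, with none in the gap.

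BC002163 was at 18.1, 32.4, 37.1, 41.9 and 43.3 CPM in Control saline mice, at 15.7, 25.15, 30.05, 38.2 and 39.3 CPM in Control amphetamine mice, at 17.5, 17.7, 24.5, 39.4 and 45.2 CPM in High-Active saline mice and at 0.464, 17.8, 25.5, 31.15 and 42.3 CPM in High-Active amphetamine mice. The 9 mice with the highest Ndufs5 were the 9 mice with the lowest BC002163, and the mouse with 50.9 CPM of Ndufs5 was the one with 0.464 CPM of the pseudogene. The sum of both ranged 1.56-fold over the 20 mice, against 4.13-fold for Ndufs5 alone. With the reads of pseudogenes added to their parent gene, the line difference of Ndufs5 went from 0.47 (SE 0.270) to 0.05 (SE 0.074, edgeR FDR 0.694).

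Atp5h and its pseudogene Gm10250 (chromosome 15, 5120654 to 5121135, minus strand) differ at 2 of 482 aligned bases, with 1 gap. The start of the coding sequence is shown with the differing base in capitals, since this pair gave the sharpest split between mice.

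Atp5h: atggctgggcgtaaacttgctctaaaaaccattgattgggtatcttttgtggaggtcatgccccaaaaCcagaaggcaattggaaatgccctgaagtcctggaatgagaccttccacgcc

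Gm10250: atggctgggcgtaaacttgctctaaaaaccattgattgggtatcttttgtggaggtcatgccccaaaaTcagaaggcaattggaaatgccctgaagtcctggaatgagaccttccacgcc

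Gm10250 was at 15.55, 16.5, 17.7, 17.7 and 18.1 CPM in Control saline mice, at 0.700, 15.4, 16.4, 17.0 and 17.2 CPM in Control amphetamine mice, at 0.846, 1.07, 15.8, 16.2 and 16.4 CPM in High-Active saline mice and at 0.727, 0.793, 0.928, 0.995 and 18.0 CPM in High-Active amphetamine mice. The 7 mice near 1 CPM, 6 of them High-Active, were the 7 mice with the highest Atp5h, at 137 to 152 CPM, and the other 13 mice were at 116 to 126 CPM. Mice 483 and 487, which share both parents, were both near 1 CPM. Mice 415 and 886, which also share both parents, were at 0.928 and 16.2 CPM.

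The sum of Atp5h and Gm10250 ranged only from 133 to 153 CPM. With the reads added together the line difference of Atp5h went from 0.12 (SE 0.051, edgeR FDR 0.158) to 0.02 (SE 0.029, edgeR FDR 0.627), and the SD of log2 CPM within groups went from 0.118 to 0.0578. Why the pseudogene row was near 1 CPM in some mice was not tested.

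Ndufa12, an accessory subunit gene of complex I, and Gm15920 (chromosome 5, 130188395 to 130188796, plus strand) differ at 2 of 402 aligned bases, of which 1 lies in the stretch shown, from base 49 to base 168 of the coding sequence. It is given because here the pseudogene row took up to 55.8% of the summed reads.

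Ndufa12: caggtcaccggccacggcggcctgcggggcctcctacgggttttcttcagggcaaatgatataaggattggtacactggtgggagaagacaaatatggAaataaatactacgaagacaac

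Gm15920: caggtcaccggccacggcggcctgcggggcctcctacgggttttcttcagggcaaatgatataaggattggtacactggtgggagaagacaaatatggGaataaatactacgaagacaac

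Ndufa12 was at 23.3 to 33.6 CPM in Control mice and 23.8 to 40.1 CPM in High-Active mice, and Gm15920 at 19.9 to 31.1 and 13.6 to 26.8 CPM. The line difference was 0.22 (SE 0.109, edgeR FDR 0.206) for Ndufa12, -0.28 (SE 0.120, edgeR FDR 0.151) for Gm15920 and 0.01 (SE 0.058, edgeR FDR 0.939) for the sum. Thus a positive and a negative value of like size gave a sum near 0, and none of the 3 was called.

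Atp5g1 and Gm10039 (chromosome 11, 100361716 to 100362126, minus strand) differ at 1 of 411 aligned bases. Gm10039 was at 1.09 to 13.1 CPM in Control and 2.00 to 13.5 CPM in High-Active mice. The 4 mice with the lowest Atp5g1 (58.4 to 64.2 CPM) had 6.99 to 13.5 CPM of the pseudogene. The line difference of Atp5g1 was 0.16 (SE 0.073) alone and 0.11 (SE 0.049, edgeR FDR 0.172) with Gm10039 added, so this value moved less than those of Ndufs5, Atp5h and Ndufa12.

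Ndufb4c is itself a member by its name and a pseudogene of Ndufb4, an accessory subunit gene of complex I, with 0 differences in 390 aligned bases. It was at 1.49, 1.56, 1.57, 5.28 and 9.86 CPM in Control saline mice and at 1.198 to 2.01 CPM in the 15 mice of the other groups. The same 2 Control saline mice had the lowest Ndufb4, 29.6 and 21.2 CPM, against 39.0 to 45.5 CPM in all other mice. The line difference was -0.65 (SE 0.294, edgeR FDR 0.166) for Ndufb4c, 0.11 (SE 0.087) for Ndufb4 and 0.06 (SE 0.050, edgeR FDR 0.494) for the sum.

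The pair of Cox7a2l and Gm6969 went only partly the same way. For Cox7a2l, which encodes a factor that joins complexes III and IV, Gm6969 was at 0.124 CPM in mouse 483 and at 8.66 to 22.7 CPM in the other mice. The mouse with the lowest Cox7a2l, 97.2 CPM, had the highest Gm6969. Mouse 483, however, had 128 CPM of Cox7a2l, below mouse 415 (143 CPM, with 9.81 CPM of Gm6969) and mouse 886 (138 CPM, with 10.4 CPM). Adding the pseudogene took the SD of log2 CPM within groups from 0.129 to 0.0934 and the line difference from 0.04 to -9.86e-05. Such changes were not seen for the other pairs. For Atp5f1, Atp5l, Cox7c and Ndufab1 the pseudogene row held at most 4.51% of the summed reads, and adding it moved the line difference by little, as for Cox7c (0.0606 and 0.0601). The SD of log2 CPM within groups of these 4 genes was 0.0424 to 0.0683, below the median of the members. With all pseudogene reads added, 1 member of 90 was still called, Ndufc1, where 14.5% of all genes were called.

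**Figure D4:**
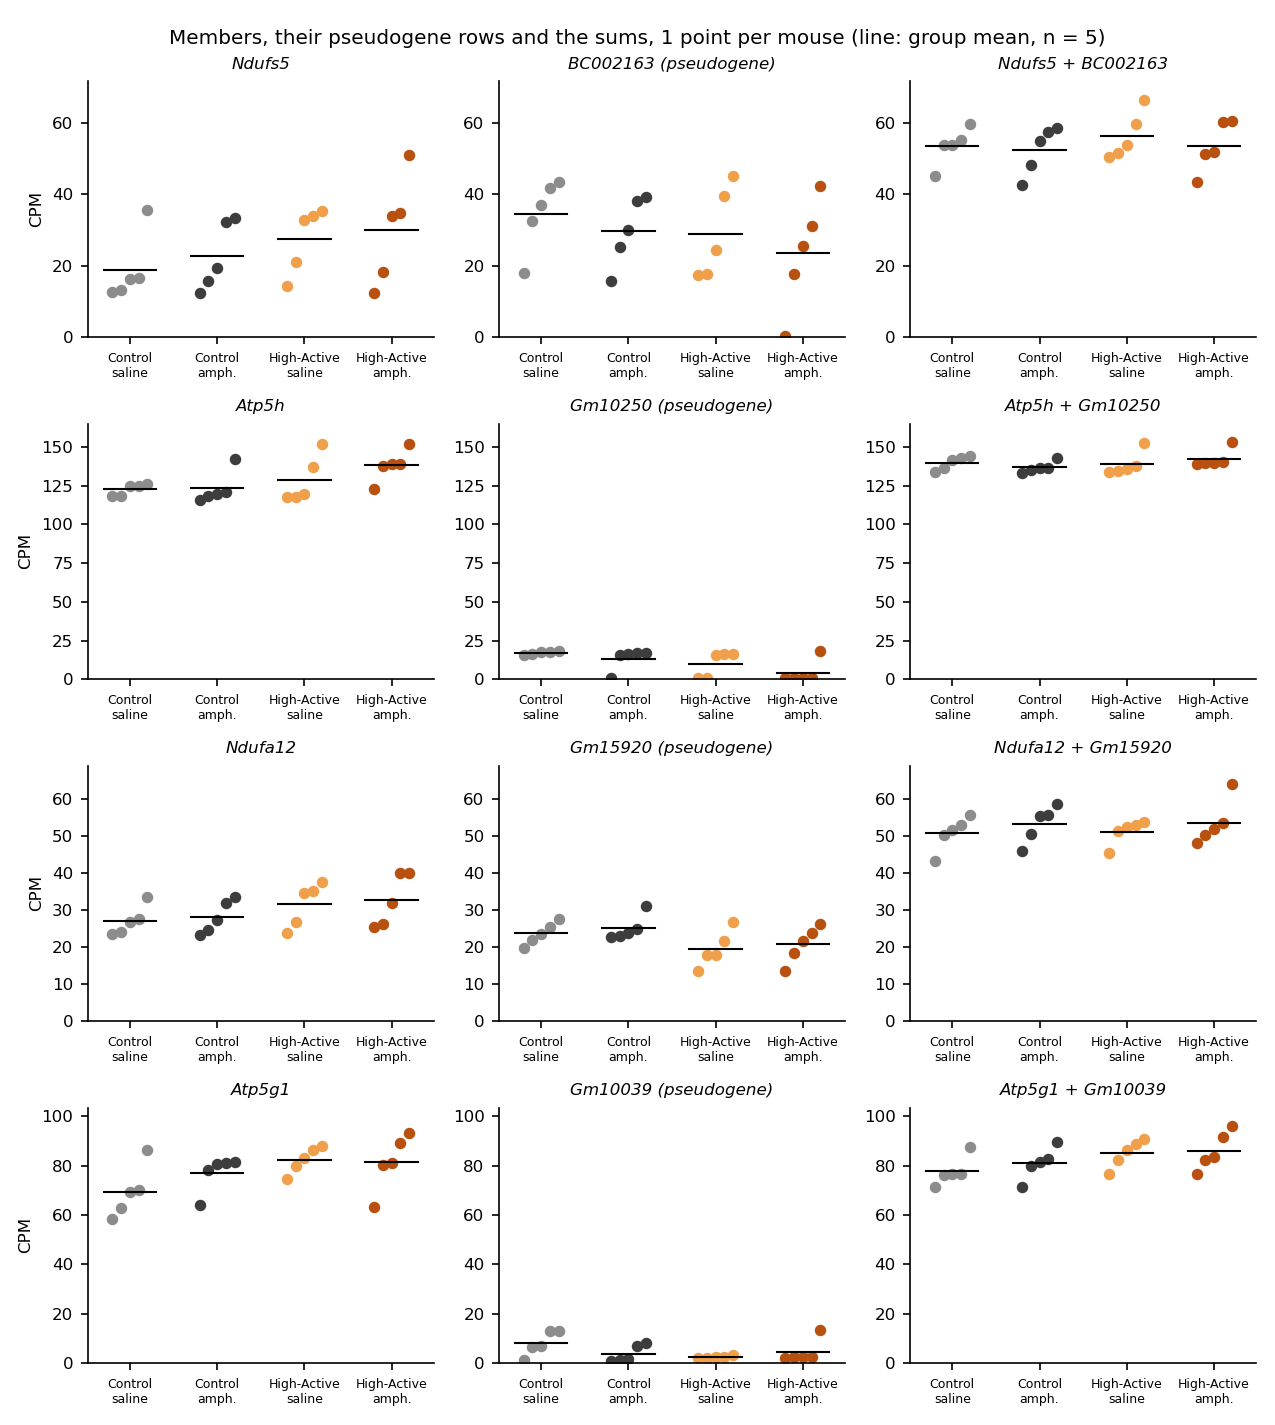
CPM (vertical axes from 0, the same within a row) of 4 members, of their pseudogene rows and of the sums, with 1 point per mouse, 5 mice per group and lines at the group means. Points split into high and low sets for Ndufs5 and for Gm10250, and the sums in the right column lie closer together, from 133 to 153 CPM for Atp5h with Gm10250.

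The next question was whether amphetamine altered these genes 2 hours after injection. In edgeR's quasi-likelihood test 0 of 91 members and 0% of all genes passed the threshold for the effect averaged over both lines. At an unadjusted p under 0.05 there were 8 members and 1844 of all 14792 genes. DESeq2 also called 0 members (9 at an unadjusted p under 0.05), as did limma-voom with a family block (7). The same held for a fit within 6 families of 13 mice (0) and the likelihood-ratio test with robust dispersions (1). The share of all genes called in these alternative fits is not given here, so whether 0 members is low for them cannot be told. Within Control mice 0 members and 0% of all genes passed, and within High-Active mice 0 members and 0% of all genes. At an unadjusted p under 0.05 there were 7 members and 940 of all 14792 genes in Control mice. In High-Active mice there were 0 members and 1247 of all genes.

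The smallest p for the averaged effect belonged to Ndufb10, an accessory subunit gene of complex I. It was at 89.8, 91.7, 95.4, 97.4 and 99.0 CPM in Control saline mice, 82.2, 88.4, 88.4, 89.0 and 90.3 CPM in Control amphetamine mice, 91.7, 92.7, 96.35, 96.4 and 96.6 CPM in High-Active saline mice and 85.6, 88.7, 90.4, 92.7 and 97.8 CPM in High-Active amphetamine mice. Amphetamine mice tended to the lower values in both lines, with overlap in each line (log2 fold change -0.08, SE 0.028, edgeR FDR 0.234). Next came Ndufab1, the mitochondrial acyl carrier protein gene and a complex I subunit gene (-0.08, SE 0.032, edgeR FDR 0.335), and Ndufb4c (-0.71, SE 0.294, edgeR FDR 0.341), whose value rests on the 2 Control saline mice described above.

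In Control mice the smallest p values belonged to Ndufb4c (-1.26, SE 0.417), Ndufs6 (-0.17, SE 0.061) and Ndufb10 (-0.11, SE 0.039), all with an edgeR FDR of 0.693. Ndufs6, a subunit gene of the NADH arm of complex I, was at 36.9 to 45.2 CPM in Control saline and 34.1 to 39.1 CPM in Control amphetamine mice. In High-Active mice they belonged to the assembly factor Ndufaf5 (-0.14, SE 0.070, edgeR FDR 0.630), Ndufab1 (-0.07, SE 0.045, edgeR FDR 0.709) and Cox7b (0.07, SE 0.041, edgeR FDR 0.714), a small subunit gene of complex IV.

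The members' log2 fold changes after amphetamine had a median of -0.0365 in Control mice, with 26 of 91 positive, and 0.017 in High-Active mice, with 49 of 91 positive. The same medians over all genes were -0.00291 and -0.00625. The difference between the responses (interaction) had a median of 0.0404 and was positive for 71 of 91 members, beside 0.0012 and 50.5% positive over all genes. It was positive for 32 of 39 complex I genes, 12 of 14 complex IV genes, 12 of 17 ATP synthase genes and 7 of 8 complex III genes. No test of these medians was made. Members measured in the same mice are not independent, so these counts of signs do not count replicates. For example, mouse 197 (High-Active saline) had the highest level of 23 members, and mouse 483 of the same group had the lowest of 13. Gene by gene, 0 members and 0% of all genes were called for the interaction in edgeR's test. At an unadjusted p under 0.05 there were 2 members and 440 of all 14792 genes. With DESeq2 0 members were called, and 3 were under 0.05. The share of all genes called in that fit is not given here.

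Other groups of transcripts are given for scale. The median after amphetamine was -0.0968 in Control and -0.0593 in High-Active mice for the 78 cytosolic ribosomal protein genes. It was -0.0434 and -0.024 for 727 other short protein-coding genes. For 9 markers of cortical excitatory neurons, described further on, it was 0.46 and 1.44, and the interaction was positive for all 9. The part of cortical tissue in the members' values after amphetamine was not tested. In the interaction 74.4% of the cytosolic ribosomal, 63.2% of the mitochondrial ribosomal and 56.7% of the other short genes were positive, beside 78.0% of the members. The 3 members with the smallest interaction p were Ndufs6 (0.19, SE 0.086), Cox5b (0.23, SE 0.105) and the assembly factor Ndufaf2 (0.29, SE 0.140), each with an edgeR FDR of 1.0. Cox5b, a zinc-binding subunit gene of complex IV, had a log2 fold change of -0.12 in Control and 0.11 in High-Active mice, and Ndufaf2 of -0.17 and 0.13.

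**Figure D5:**
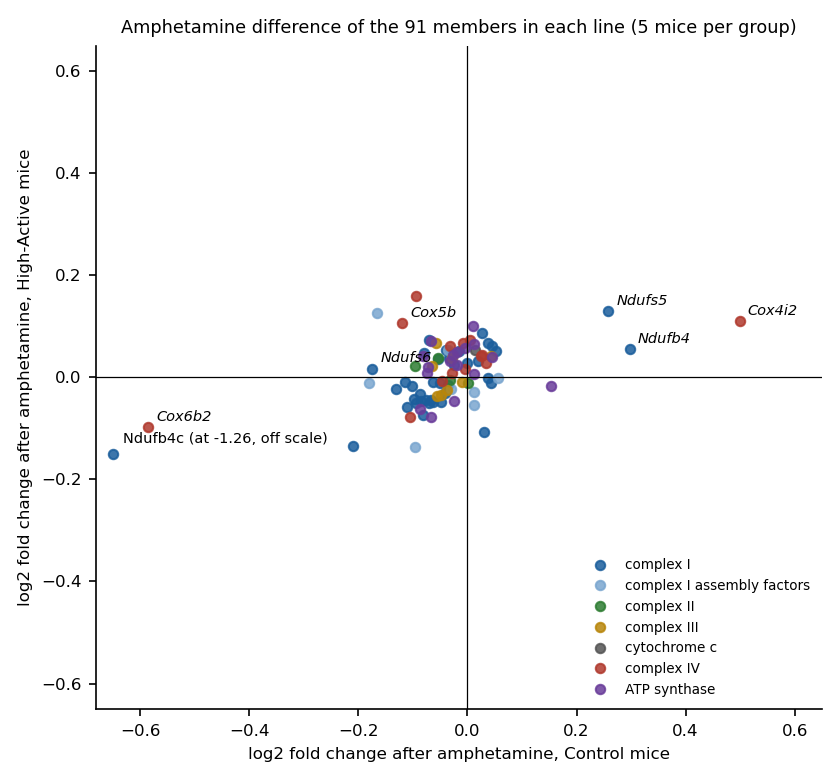
Log2 fold change after amphetamine in Control mice (horizontal axis) and in High-Active mice (vertical axis), with 1 point per member, coloured by role and estimated from 5 mice per group. Of the points, 26 of 91 lie right of 0 and 49 of 91 above 0, and Ndufb4c is drawn at the left edge, off scale, although its value is -1.26.

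The highest and lowest values of the members were unevenly spread over the mice. Mouse 197 (High-Active saline) had the highest level of 23 of the 91 members and the lowest of 0, and its members summed to 9756 CPM. Mouse 483, of the same group, had the lowest level of 13 members and the lowest sum, 8808 CPM. These extremes had 38110985 and 41068475 reads on genes, near the median of 41703853.5, and their mitochondrially encoded subunits summed to 95713 and 108015 CPM, so the nuclear and mitochondrial sums did not take the same order. Without mouse 197 the members' median line difference was -0.00481.

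The promoters were searched for 3 motifs known from respiratory chain genes, on both strands, in 300 bases from 250 before to 50 after the start of transcription (RefSeq, GRCm38.p6). Of the 94 protein-coding members, 75 matched a promoter entry by symbol. The letters of the NRF1 motif, GCGCANGCG, were present for 23 of 75 members (30.7%), and for 14.4% of 11104 tested genes and 7.03% of all 27025 genes with a promoter entry. Those of the ETS motif bound by GABP, CCGGAAG, were present for 18 members (24.0%), against 18.3% of tested genes, and those of YY1, AAGATGG, for 11 members (14.7%), against 8.04%. At least 1 of the 3 was present for 43 members (57.3%), against 34.8% of tested genes. In 0 members did different motifs overlap. A match of letters is a description of the sequence and not a binding site.

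The cell types of the tissue were read from marker lists, whose calls stand beside 7.63% higher and 6.9% lower over all genes. All 10 markers of striatal projection neurons were present, summing to 5327 to 6794 CPM in Control and 4353 to 7179 CPM in High-Active mice, with 0 called between the lines. Their line difference had a median of -0.128, with 1 of 10 positive and 2 at an unadjusted p under 0.05 in edgeR's test. Of 9 markers of cortical excitatory neurons 3 were lower in High-Active mice. Their sum was 296 to 829 CPM in Control saline and 607 to 830 CPM in Control amphetamine mice. In High-Active mice it was 163 to 342 CPM with saline and 217 to 968 CPM with amphetamine. Averaged over lines, their median log2 fold change after amphetamine was 0.948. Of the 9, 8 had an unadjusted p under 0.05 in edgeR's test for amphetamine and 0 were called. Of 7 oligodendrocyte markers 2 were higher, summing to 3876 to 6534 and 5392 to 7180 CPM. Of 6 astrocyte markers 2 were higher and 1 lower, of 6 microglial markers 2 were lower, and of 6 pericyte and smooth muscle markers 2 were higher and 2 lower. Choroid plexus markers ranged from 27.2 to 754 CPM in Control and 36.9 to 923 CPM in High-Active mice with 0 of 6 called. Of 6 interneuron and 5 endothelial markers 0 were called. Of 5 blood cell markers 1 was higher, Hba-a2 (log2 fold change 2.59, SE 0.735, edgeR FDR 0.0397). Blood markers summed to 15.1 to 189 CPM in Control and 16.8 to 366 CPM in High-Active mice. With the cortical marker score as a covariate of the line difference 0 of 91 members were called (9 at an unadjusted p under 0.05). The share of all genes called in that fit is not given here. The median line difference was 0.00736, and the amphetamine contrasts were not fitted with this score. The part of the other cell types in the members' values was not tested.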

How the data were processed

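RNA of the bilateral striatum of 20 mice was sequenced by the study as stranded, paired reads of 100 bases, with all libraries pooled over 5 lanes. Per the submitters' processing notes, the authors used TopHat2 2.0.10 for alignment to GRCm38 and HTSeq 0.6.1 with Ensembl 75 for counting. The deposited values are raw counts per gene. The strand setting of the counting is not given in the sources used here. Reads aligned to several places were set aside by the counter and made up 5.70 to 7.01% of the listed reads.

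Rows that name no gene (no feature, ambiguous, not unique) held 16.0 to 17.5% of the listed reads and stayed out of library sizes. Symbols, positions and exon lengths came from GENCODE vM21 of the same build, which named 37693 of 39179 IDs. Counts were normalized by TMM and tested with edgeR 4.0.16 (R 4.3.3) by the quasi-likelihood test in a model with 4 group means, after a filter of more than 1 CPM in at least 3 mice. FDR was computed over 14792 genes by the Benjamini-Hochberg method with a threshold of 0.1, standard errors were taken from the fold change and its F statistic, and CPM values are TMM-normalized. DESeq2 1.42.0 and limma 3.58.1 served as alternatives. Scripts were tested on simulated data.

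Mice are separate animals, many of them sharing both parents with another mouse. Named genes were the called members, the member with the smallest genotype p in each other role, the complex II genes and Cycs, tissue isoforms with their partners, the 3 smallest p values of each amphetamine contrast, and the highest and lowest level per role. Ndufs3 and the members with an expressed pseudogene row were chosen after their values were seen. The values of 1 member are not reported here. The members and lists were chosen with earlier results of these data known. Sequences came from the GENCODE transcripts. Counting error is larger for the tested members with under 100 reads in some mice, which were Cox4i2 (27 to 55 reads per mouse), Ndufa4l2 (28 to 72), Cox6a2 (49 to 146), Cox6b2 (28 to 123) and Ndufb4c (51 to 374).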

Additional observations from a re-analysis of the deposited data

Results flagged for a closer look

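Within each group of 5 mice, the highest or lowest mouse was compared with the rest for 45 named members, 180 groups in all, and 16 stood apart. Chance alone flags about 1 in 20 groups only where values are independent and normally distributed. Some of these members were chosen after their values were seen, and Cox8c was flagged on its only read. The count of 16 is therefore not read against that rate. The level of Ndufs5 in Control saline mouse 469 was 35.7 CPM, beside 12.5 to 16.7 CPM in the others. Atp5h in Control amphetamine mouse 407 was 143 CPM, beside 116 to 121 CPM. In Control amphetamine mouse 369 Atp5g1 was 64.2 CPM (others 78.4 to 81.5) and Ndufb10 was 82.2 CPM (others 88.4 to 90.3).

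Control amphetamine mouse 454 stood apart for Cox4i2, at 1.36 CPM (others 0.891 to 1.02), and for Uqcrh, at 128 CPM (others 118 to 119). Control amphetamine mouse 457 stood apart for Cox6a1, at 169 CPM (others 155 to 157), and for Cox6b2, at 1.47 CPM (others 0.891 to 0.967). Control saline mouse 477 had 146 CPM of Ndufa4 (others 162 to 166).

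In High-Active saline mouse 871, the muscle forms Cox7a1 and Cox8b were at 1.195 and 0.455 CPM, beside 0.386 to 0.526 and 0.113 to 0.153 CPM in the others. In High-Active amphetamine mice, mouse 487 had 98.1 CPM of Cox7c (others 106 to 108) and 8.37 CPM of Ndufaf2 (others 10.1 to 10.5). Mouse 872 had 258 CPM of Cox8a (others 227 to 232) and the only read of Cox8c, a level of 0.0209 CPM. Mouse 192 had 189 CPM of Uqcrc2 (others 176 to 179).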

How the results depend on the processing

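The number of members called between the lines was 1 with RLE normalization, a filter in at least 5 mice, limma-voom with a family block and pseudogene counts added (an alternative chosen after seeing the data). It was 2 with total counts only (Ndufc1, Ndufs3), 2 without a filter (Ndufc1, Cox8b) and 2 with the likelihood-ratio test (Atp5g1, Ndufs5). With DESeq2 it was 4 (Ndufc1, Cox6a2, Ndufs3, Sdhc). After summing mice of the same parents it was 0 (5 at an unadjusted p under 0.05 in edgeR's test), and with the cortical marker score 0 (9). Leaving out single mice gave 1 to 4, always with Ndufc1, whose FDR stayed between 0.0285 and 0.0905. The count was 4 without mouse 477, 3 without mice 192, 197, 369, 872 or 905, and 2 without mice 407, 411, 457, 469, 483, 499 or 883. The members' median log2 fold change stayed between -0.00481 and 0.0215. The share of all genes called in each alternative run is not given here, except with pseudogene counts added (14.5%). Whether a count of members is low or high for its run therefore cannot be told.

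For amphetamine the count was 0 to 1 over single mice left out, the 1 being Ndufb10 without mouse 415, and for saline mice 0 to 1, the 1 being reached without mouse 197, 469 or 477. For the interaction and for amphetamine mice it was 0 in every alternative run. Over 41 named members, 42 of 1225 values changed sign and none of these was called. The labels give animal numbers and no shared replicate numbers, so mice were paired only through their parents. With family as a block, amphetamine gave 0 called members (0 at an unadjusted p under 0.05 in edgeR's test). This fit held only the 13 mice of the 6 families with both treatments, so it could find little. The number of mice limits precision: the median standard error of a member's line difference was 0.0387 on the log2 scale.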
